A study of Mus musculus with 2 samples.

Results

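The small heat shock proteins and the cochaperone BAG3 were examined in mouse heart RNA as a family of 8 genes, Cryab, Hspb1, Hspb2, Hspb3, Hspb6, Hspb7, Hspb8 and Bag3, out of 25004 genes counted. The members were fixed by family, but they were chosen with earlier results of these data known. They are not the whole family, and 4 further genes listed as small heat shock proteins are given below. Small heat shock proteins share a conserved alpha-crystallin domain and bind unfolding proteins without using ATP, holding them until ATP-driven chaperones refold them or hand them on for degradation. BAG3 links a small heat shock protein, most often HSPB8, to an Hsp70 chaperone, and the complex directs damaged proteins of the sarcomere to selective autophagy. In heart muscle these proteins protect desmin, actin and other filament proteins under load, and inherited changes in CRYAB and BAG3 cause cardiomyopathy.

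The mice were of the FvB/N strain and 12 weeks old. An RNA library was made from each group: the first pooled 3 hearts of non-transgenic animals, called control below, and the other pooled 3 hearts of transgenic animals. The transgene encodes cardiac myosin binding protein-C (cMyBP-C), a thick-filament protein, without its amino-terminal C0-C1f region. The promoter that drives the transgene is not given in the sources used here, nor is the state of the endogenous gene. The question was which transcripts stood at other levels in transgenic than in control heart. No difference below was checked against replicates, since each group is a single library, and intervals cover counting error only.

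The libraries held 170543 and 190824 counts. After normalisation 1 count stood for 6.22 CPM (counts scaled to a library of 1000000) in control and 4.94 CPM in transgenic heart. Of 8 cardiomyocyte markers, 5 had more than 3 counts in a library, and their sum was high, at 28479 and 38124 CPM over the whole list. Tnnt2, the cardiac troponin T gene, had no count in either library, Myh6 had 0 and 1, and Mb had 1 and 0. A gene at or near 0 here is therefore not shown to be silent in the tissue. The kit kept the strand of origin, and the strand setting of the counting is not given in the sources used here. With a setting opposite to the kit, a gene's count would stand for reads from the other strand. Genes whose exons overlap an opposite-strand gene were 24.0% of all genes and held 72.7% of control and 68.4% of transgenic counts. Genes with no opposite-strand exon within 5 kb were 44.1% of all genes and held 10.3% and 12.3% of counts. Among these, Tnnt2 and Hspa8, the constitutive Hsp70 gene, had no count, while Actn2 had 299 and 384 and Ryr2 129 and 185. Genes with several transcripts also more often had no count, as given below for Hspb6. Whether a count of any gene below, members included, stands for reads from its own strand or from the other cannot be told apart here.

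The members were counted at very different depths. Cryab and Hspb7 had the most, Hspb8 and Bag3 fewer, and the remaining 4 had 5 counts or fewer in each library. Of the 8 members, 7 had more than 3 counts in a library and so had a ratio between the libraries, and 4 had at least 30 counts over both. The non-transgenic and transgenic counts were 861 and 997 for Cryab, 192 and 318 for Hspb7, 26 and 58 for Hspb8, and 37 and 59 for Bag3. Hspb1 had 5 and 5, Hspb3 had 5 and 1, and Hspb2 had 0 and 4. Hspb6 had no count in either library.

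**Figure D1:**
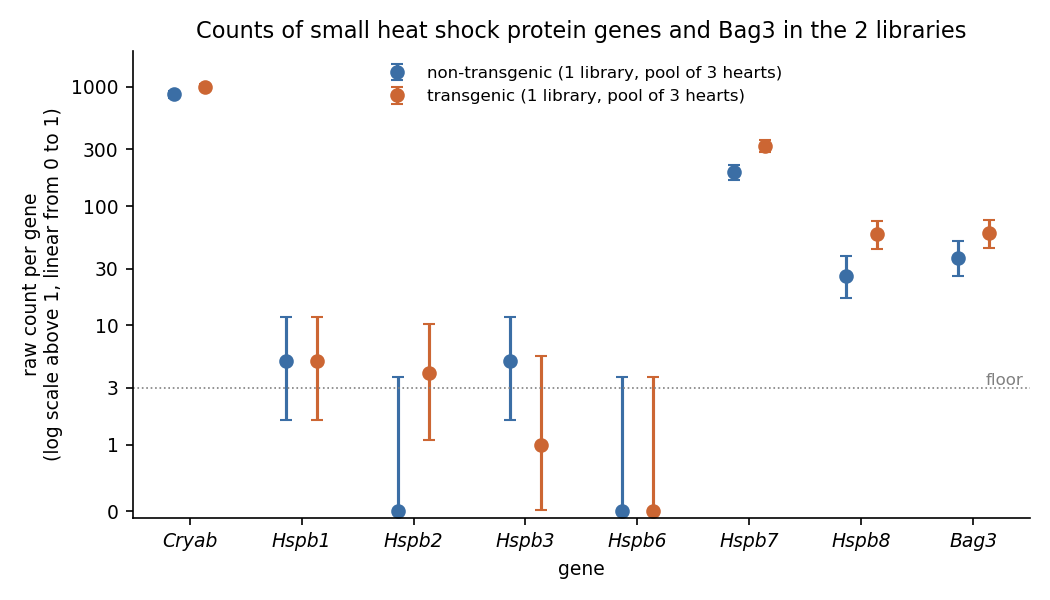
Raw count of each gene (vertical axis, log scale above 1 and linear from 0 to 1) in the non-transgenic and the transgenic library, with exact 95% Poisson intervals. Cryab stands at 861 and 997, Hspb8 goes from 26 to 58 counts, and Hspb6 is at 0 in both; the dotted line marks the floor of 3 counts that replaces a 0 in a ratio.

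Promoter sequences bear on this family because heat shock factor 1 (HSF1) switches on many chaperone genes through heat shock elements, repeats of GAA in alternating orientation. RefSeq promoter windows on GRCm38.p6, running from 250 bases before to 50 after an annotated start, were found for 6 of the 8 members, and Hspb6 had a second window. Cryab and Hspb2 had no entry. The letters GAANNTTC, a pair of repeats that reads the same on both strands, occurred in windows of 5 of these 6 genes, Hspb1, Hspb3, Hspb6, Hspb8 and Bag3, against 7.86% of all 32851 windows. The member figure is per gene and the share over all windows is per window, and Hspb6 matched in its second window only. Hspb7 had no GAANNTTC match. The opposite arrangement TTCNNGAA, present in 8.52% of all windows, occurred in none of the members' windows. Both arrangements of the pair were searched, and 15.1% of all windows hold either of them. A triplet of alternating repeats, GAANNTTC followed by NNGAA, was searched on both strands. It was present in 0.603% of all windows and in none of the members' windows.

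In 4 genes, Hspb1, Hspb6, Hspb8 and Bag3, the matched pair had the same 8 letters, GAAGTTTC, which 1.21% of all windows hold on either strand. This exact string was looked up after the matches had been seen. The stretches are shown because they are the sequence feature that these members share; capitals mark the GAANNTTC match.

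Hspb1 (chr5:135887791-135887840, plus strand, bases -128 to -79 from the start): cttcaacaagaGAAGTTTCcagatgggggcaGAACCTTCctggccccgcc

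Hspb6, second window (chr7:30553169-30553198, plus strand, bases -132 to -103): caagtaattattGAAGTTTCtaaataagga

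Hspb8 (chr5:116422844-116422873, minus strand, bases -9 to 21): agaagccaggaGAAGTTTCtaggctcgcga

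Bag3 (chr7:128523603-128523632, plus strand, bases 21 to 50): ccaagttctctggatgggaccaGAAGTTTC

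Hspb3 (chr13:113663883-113663912, minus strand, bases -236 to -207): tctccccgaatgGAATTTTCaggcagaggg

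The match lay upstream of the start in Hspb1, Hspb3 and Hspb6 and just after it in Hspb8 and Bag3. Hspb1 was the only member with 2 matches in its window. A TATA box, searched as TATAAA on both strands and present in 13.6% of all windows, was found in Hspb3 at base -11 and in the second window of Hspb6 at base -29. These are matches of letters and say nothing of binding. The genes that share GAAGTTTC did not share a count level, with Hspb8 and Bag3 well counted, Hspb1 at 5 and Hspb6 at 0.

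Hspb8 encodes the small heat shock protein that pairs with BAG3, and it was the only member counted as at least 1.5-fold apart. Control heart gave 26 counts and transgenic heart 58, or 162 and 287 CPM. The transgenic value was 1.77-fold the control (95% counting interval 1.10 to 2.94). Members were called apart when they were at least 1.5-fold apart with an interval on the same side of 1. By that rule 1 member of the 7 with a ratio was higher, none was lower and 6 were neither. Over all 4236 genes with a ratio, 3.42% were called higher, 5.9% lower and 9.32% either way. Of these calls 36.7% were higher, which became 54.4% with DESeq2 size factors, 62.2% with total counts alone and 18.2% when ratios were centred on isolated genes. A single call among 7 members is not set apart from that background.

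Hspb8 (chromosome 5, 116408491 to 116422864, minus strand, GRCm38) has a single counted transcript and is isolated, meaning that no exon of an opposite-strand gene lies within 5 kb. Genes of this isolated kind had a higher ratio in general. Among 237 isolated genes with at least 30 counts over both libraries the median log2 ratio was 0.18, with 13.5% called higher, 4.64% lower and 18.1% either way. Over all 1349 genes of that depth the median was -0.096, with 6.23% called higher, 12.1% lower and 18.3% either way. The log2 ratio of Hspb8, 0.83, lay at percentile 93.6 of the 1349 genes and at percentile 83.5 of the isolated ones. When ratios were centred on the isolated genes, Hspb8 stood at 1.57 (0.972 to 2.60) and was no longer called.

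Bag3, whose product joins HSPB8 to Hsp70, had 37 and 59 counts, or 230 and 292 CPM. Its ratio of 1.27 (0.827 to 1.97) had an interval on both sides of 1. The gene (chromosome 7, 128523616 to 128546981, plus strand) is isolated too and has a single counted transcript. The ratio of Hspb8 was 1.40 times that of Bag3 (exact 95% interval 0.721 to 2.73), a comparison that no scaling of the libraries affects. The 2 partners therefore did not differ beyond counting error, and the interval is wide enough to hold a difference of more than 2-fold.

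Hspb7, a heart and skeletal muscle small heat shock protein that acts on actin filaments and filamin C, had 192 and 318 counts, or 1194 and 1572 CPM. Its ratio was 1.32 (1.10 to 1.58), above 1 beyond counting error but short of 1.5-fold. The gene (chromosome 4, 141420779 to 141425311, plus strand) has a single counted transcript. Hspb7 stood at 1.16 (0.970 to 1.40) when ratios were centred on isolated genes and at 1.48 (1.23 to 1.78) with total counts alone.

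The 3 deepest members other than Cryab all had a higher CPM in transgenic heart. Summed, Hspb7, Hspb8 and Bag3 went from 255 to 435 counts, or 1.36-fold (1.16 to 1.59), and Hspb7 supplied most of that sum. All 7 members without Cryab went from 265 to 445 counts, or 1.34-fold (1.14 to 1.56). Cryab was left out of these sums after the data were seen, and their intervals hold for the TMM scaling only. With Cryab the family went from 1126 to 1442 counts, or 1.02-fold (0.941 to 1.10). The log2 median of the 7 members with a ratio was 0.084, the value of Hspb2 taken at its floor, beside 0.048 over all genes with a ratio. Over the 4 members with at least 30 counts it was 0.37, beside -0.096 over all genes of that depth. The family median changed sign to -0.093 when ratios were centred on isolated genes, and leaving Cryab out moved it to 0.21.

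**Figure D2:**
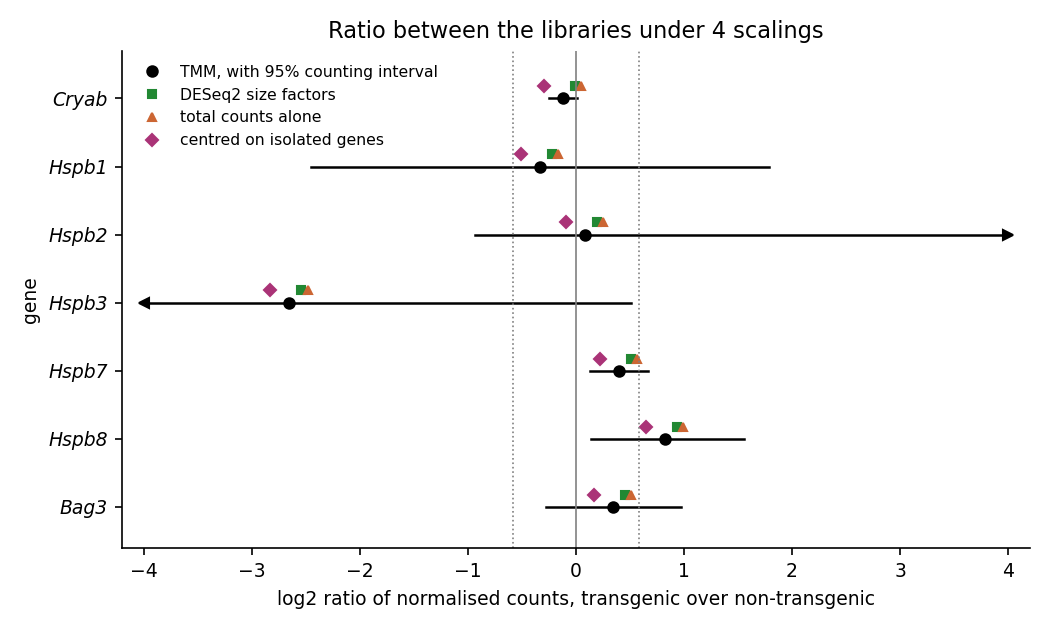
Log2 ratio of transgenic to control normalised counts (horizontal axis) for the 7 members with a ratio, with the 95% counting interval of the TMM value (line; arrowheads run off the axis) and the value under 3 other scalings; dotted lines mark 1.5-fold. Hspb8 alone lies past 1.5-fold to the right with an interval clear of 0, Hspb7 lies right of 0 but within 1.5-fold, and Hspb2 is plotted against the floor of 3 counts.

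Cryab encodes alpha-B crystallin, a chaperone of desmin and titin that is abundant in heart muscle, and it was the member with the highest count. It had 861 and 997 counts, or 5353 and 4928 CPM, and a ratio of 0.921 (0.840 to 1.01). It supplied 76.5% of the family's counts in control heart (exact 95% interval 73.9 to 78.9) and 69.1% in transgenic heart (66.7 to 71.5). These intervals do not overlap. Scaled with total counts alone its ratio was 1.03 (0.944 to 1.14), and with DESeq2 size factors 0.993 (0.905 to 1.09). With upper-quartile scaling it was 0.901 (0.821 to 0.988), and centred on isolated genes 0.814 (0.742 to 0.893). Whether Cryab stood below 1 beyond counting error therefore depends on the scaling, and only total counts alone put its ratio above 1.

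The files count 4 Cryab transcripts, and all 861 and 997 counts were on 1 of them, while the other 3 had none in either library. Such a pattern was usual in these files. Of 131 genes with 2 or more transcripts and at least 30 counts summed, 116 (88.5%) had at least 90% of them on 1 transcript. The counted transcript starts upstream of the others, with a first exon of 252 bp at chromosome 9, 50751325 to 50751576, on the plus strand. This exon lies wholly inside an exon of Hspb2 on the minus strand, and all 252 bases are coding sequence of Hspb2 when read from that strand. The reverse complement of the exon was found as 1 unbroken run in the Hspb2 transcript. The counts are given per transcript and not per exon, so the position of the reads within it is not known. The counted transcript has 359 of its 1117 exon bases in no other counted Cryab transcript, and 252 of those 359 lie opposite exons of Hspb2.

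Hspb2 encodes a small heat shock protein of muscle that binds the myotonic dystrophy kinase, and its gene (chromosome 9, 50751078 to 50752354) runs head to head with Cryab. Control heart gave 0 counts and transgenic heart 4, all on the longer of its 2 counted transcripts. Against the floor of 3 counts its ratio was 1.06, and the counting interval began at 0.525, so a lower transgenic level was within counting error. Whether the 861 and 997 counts came from the upstream transcript of Cryab, from other Cryab RNA or from Hspb2 cannot be told apart in these data. The next gene on the minus strand, 2310030G06Rik, lies 4789 bp from Cryab and had 0 and 1 counts.

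**Figure D3:**
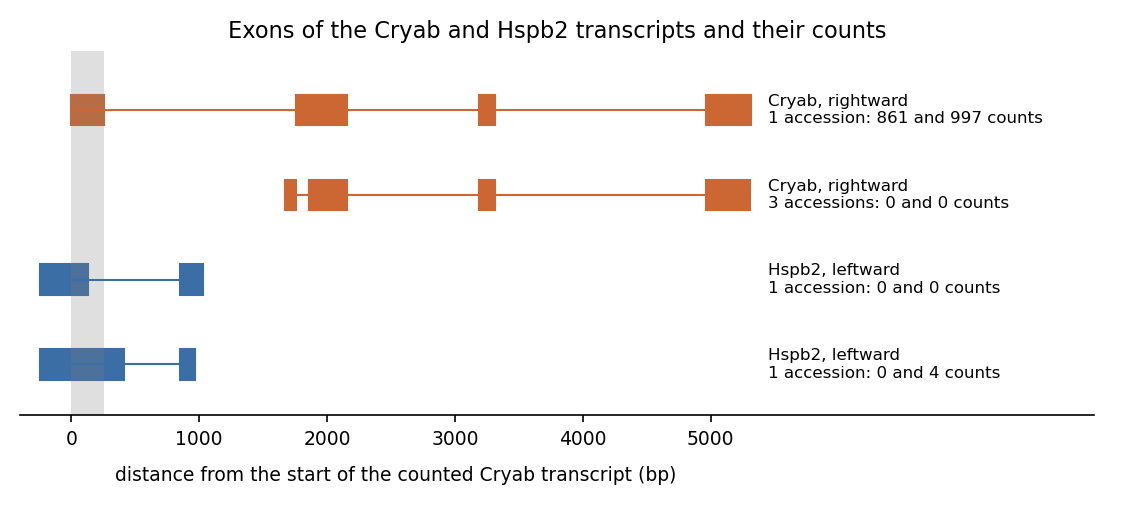
Exons (boxes) of the counted transcripts of Cryab (transcribed rightward) and Hspb2 (leftward) by distance in bp from the start of the counted Cryab transcript, with the non-transgenic and transgenic counts of their accessions at the right. The grey band is the 252 bp first exon of the Cryab transcript to which all 861 and 997 counts were assigned; the band falls inside the last exon of the Hspb2 transcript with 0 and 4 counts.

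Set against the counts assigned to Cryab, whose source is uncertain as above, Hspb7 and Hspb8 stood higher in transgenic heart. These comparisons are between genes of the same libraries and do not depend on scaling. The ratio of Hspb7 was 1.43 times that of Cryab (1.16 to 1.76) and the ratio of Hspb8 was 1.93 times that of Cryab (1.18 to 3.22). For Bag3 the value was 1.38 (0.888 to 2.16), with an interval that held 1. Among Hspb7, Hspb8 and Bag3 themselves every pair had an interval that held 1. Of the 6 pairs compared, 2 were apart beyond counting error. Overlapping genes, the kind to which Cryab belongs, had a median log2 ratio of -0.26 among 795 genes with at least 30 counts, and the part of this in the 2 differences was not tested.

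Hspb1, Hspb3 and Hspb6 were too thinly counted for a comparison. Hspb1 (chromosome 5, 135887919 to 135889563), which encodes the stress-responsive small heat shock protein that stabilises actin filaments, had 5 counts in each library and a ratio of 0.795 (0.183 to 3.45). Hspb3 (chromosome 13, 113662896 to 113663676), whose product forms a complex with HSPB2 in muscle, had 5 and 1 counts and a ratio of 0.159 (0.00336 to 1.42). A large fold on 6 counts was within counting error. Hspb1 and Hspb3 are isolated genes with a single counted transcript each, as Hspb8 and Bag3 are.

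Hspb6 (chromosome 7, 30552178 to 30555443), whose product is phosphorylated by protein kinase A and protects the heart in stress, had 0 counts on each of its 3 transcripts. The exact Poisson interval of a 0 runs to 3.69 counts, and the floor of 3 counts corresponds to 18.6 CPM in control and 14.8 CPM in transgenic heart. Genes with several transcripts more often had no count. Of 1842 genes with 3 counted transcripts, 86.8% had no count in either library, and so had 58.9% of 17075 genes with a single transcript; the part of this in the zeros of Hspb6 was not tested. Proser3 and Lin37, which overlap Hspb6 on the opposite strand by 122 and 3 bp of exon, had no count either.

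Per length of exon, Cryab was highest in both libraries and Hspb7 second, each clear of the next by its counting interval. In the non-transgenic library Cryab stood at 4792 CPM per kb (4477 to 5123) and Hspb7 at 431 (372 to 497). Bag3 followed at 89.8 CPM per kb (63.2 to 124) and Hspb8 at 89.0 (58.1 to 130), with overlapping intervals. Hspb3 at 39.8 CPM per kb (12.9 to 92.9) and Hspb1 at 34.4 (11.2 to 80.3) came next, and the intervals of Hspb8, Hspb3 and Hspb1 overlapped in turn.

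In the transgenic library the order of Bag3 and Hspb8 was turned, within their intervals. Cryab stood at 4412 CPM per kb (4142 to 4694) and Hspb7 at 568 (507 to 634). Hspb8 had 158 CPM per kb (120 to 204) and Bag3 114 (86.7 to 147). Both were clear of Hspb1 at 27.4 (8.89 to 63.9), Hspb2 at 23.7 (6.46 to 60.7) and Hspb3 at 6.33 (0.16 to 35.3), which overlapped each other. For Cryab the length used was that of the counted transcript, and the pair with Hspb2 leaves its level uncertain. For Hspb2 and Hspb6, which have several counted transcripts, the length was that of the joined exons of their matched transcripts. Levels per length of these 3 genes are therefore not fully comparable with those of members with a single counted transcript.

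**Figure D4:**
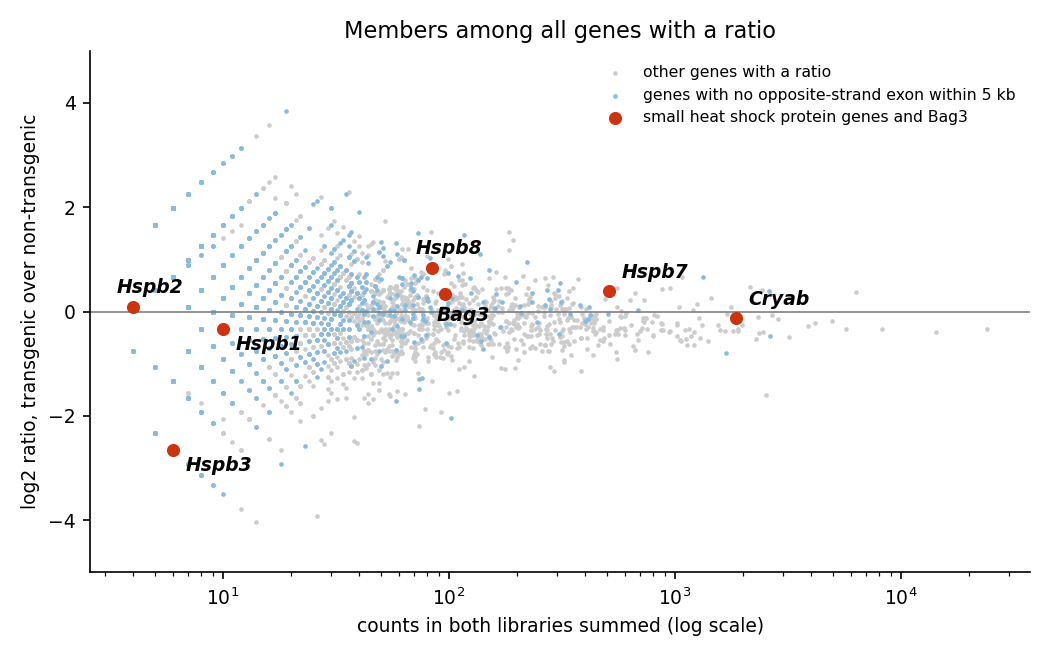
Log2 ratio, transgenic over non-transgenic (vertical axis), against the counts of both libraries summed (horizontal log axis) for all 4236 genes with a ratio, with the 7 members named; 2 genes lie outside the vertical range. The thinly counted Hspb1, Hspb2 and Hspb3 sit in the wide fan of low counts. Hspb8 lies at percentile 93.6 of the genes with at least 30 counts and at percentile 83.5 of the isolated ones.

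The other genes listed as small heat shock proteins, Cryaa, Hspb9, Odf1 and Hspb11, were in the files but had no count in either library. Among 5 other BAG family genes, cochaperones of Hsp70, only Bag2 and Bag4 had a ratio, and neither was called. Bag2 stood at 1.79-fold (0.499 to 7.95) on 4 and 9 counts, and Bag4 at 1.59-fold (0.426 to 7.22) on 4 and 8.

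Partners of BAG3 in chaperone-assisted selective autophagy were mostly at or near 0. Of 10 listed genes 2 had a ratio and none was called. Stub1, the ubiquitin ligase of the complex, gave 48 and 49 counts and stood at 0.812 (0.534 to 1.23), and it overlaps a gene on the opposite strand. Synpo2, the adaptor that starts autophagosome formation, gave 6 and 4 counts and stood at 0.530 (0.110 to 2.24). Hspa8, whose product is the Hsp70 of the complex, had none, and Sqstm1, an autophagy receptor, had 1 and 2.

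Of 28 partner chaperones of the Hsp70, Hsp110, Hsp40 and Hsp90 families, 10 had a ratio, of which 2 were called lower and none higher. Over all genes with a ratio 5.9% were called lower, and over genes with at least 30 counts summed 12.1% were. The called genes were Hspa1l, an Hsp70 gene with 41 and 28 counts that was 1.84-fold lower (1.11 to 3.09), and Hspa12b. Hspa12b, an endothelial member with 26 and 15 counts, was 2.18-fold lower (1.11 to 4.43). Hspa1l overlaps a gene on the opposite strand. Neither call was made with total counts alone or with a 99% interval, and 1 was made at a 2-fold threshold. Its median was 0.022 on the log2 scale, beside 0.048 over all genes.

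Among HSF1 and its classic targets 11 of 21 genes had a ratio, with 1 called higher, 1 lower and 9 neither. Over all genes with a ratio 3.42% were called higher and 5.9% lower. Hsf2, a second heat shock factor, had 0 and 8 counts and a ratio of 2.12 against the floor, with a counting interval that began at 1.36. Hspd1, the mitochondrial chaperonin, had 5 and 0 counts and was 2.10-fold lower against the floor, with an interval that began at 1.15-fold. Its partner Hspe1 had 5 and 12 counts and a ratio of 1.91 (0.626 to 6.91). Hspd1 and Hspe1 are overlapping genes. Neither call was made with a 99% interval. The median was 0.25. Hsf1 itself and the stress-inducible Hspa1a and Dnajb1 had no count, and Hspa1b had 0 and 1, so these inducible genes gave no comparison.

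Of 14 cytoskeletal partners and clients 6 had a ratio and none was called. Des, which encodes the desmin protected by alpha-B crystallin, is an overlapping gene with 204 and 351 counts and stood at 1.37-fold (1.15 to 1.63). Actn2, the Z-disc alpha-actinin, with 299 and 384, had a ratio of 1.02 (0.876 to 1.19). Flnc, a client of BAG3, had no count. The list's median was 0.031. With total counts alone 1 gene of this list was called higher. Of 8 kinases of small heat shock proteins 3 had a ratio and none was called, with a median of 0.41, and 1 was called higher with total counts alone. Mapkapk2, which phosphorylates HSPB1, stood at 1.53-fold (0.923 to 2.58) on 25 and 48 counts, and Mapkapk5 on 9 and 13 at 1.15-fold (0.454 to 3.04).

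Most cell type markers with a ratio were not called, and over all genes with a ratio 9.32% were called either way. The 5 cardiomyocyte markers with a ratio had a median log2 ratio of 0.42, beside -0.12 for Cryab, 0.40 for Hspb7, 0.83 for Hspb8 and 0.34 for Bag3. Of these markers 1, Tnnc1 (cardiac troponin C), was called higher at 1.59-fold (1.39 to 1.81). The cardiomyocyte calls numbered 2 with DESeq2 size factors, 3 with total counts alone and 0 when centred on isolated genes. The 3 fibroblast markers with a ratio, of 6, had a median of -1.01, and Col3a1, a fibrillar collagen, was 2.07-fold lower (1.02 to 4.34), a call not made with DESeq2 size factors, total counts alone or a 99% interval. The 4 endothelial markers with a ratio, of 5, had a median of -0.47 with none called, among them Cdh5 with 39 and 42 counts and Kdr with 23 and 22. Summed levels ran from 242 to 143 CPM for fibroblast and from 460 to 351 CPM for endothelial markers. The part of cell makeup in the ratios of the small heat shock protein genes was not tested, and in such bulk samples fewer cells of a type and less RNA per cell cannot be told apart.

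Smooth muscle, where Hspb1 and Hspb6 are also expressed, had 211 and 188 CPM over its 5 markers, of which 2 had a ratio and none was called. Tagln had 28 and 26 counts and Acta2 6 and 12, while Myh11, Cnn1 and Smtn had none. Skeletal muscle markers summed to 1 count in each library, Acta1 with 0 and 1 and Mylpf with 1 and 0, and Myh1, Myh4, Tnnt3 and Tnni2 were at 0. Leukocyte markers had 4 and 1 counts, Csf1r with 3 and 1 and Cd68 with 1 and 0. Adipocyte markers had 0 and 1, the 1 being Adipoq, with Plin1 at 0.

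**Figure D5:**
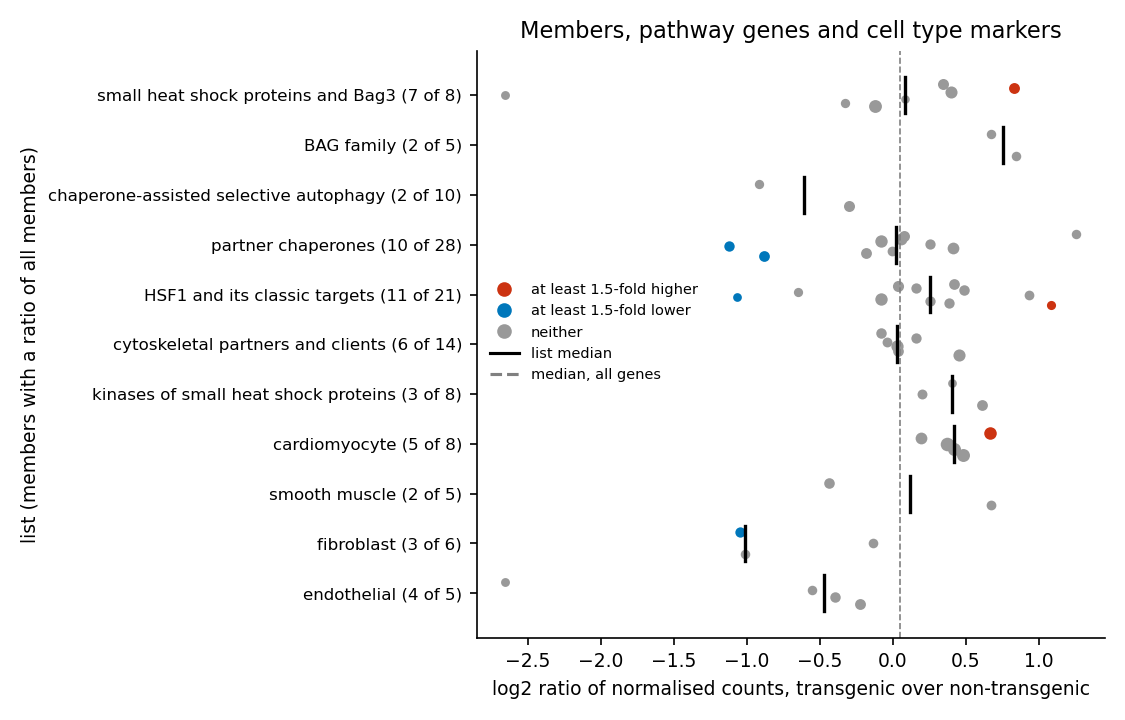
Log2 ratio of transgenic to control normalised counts (horizontal axis) of each gene with a ratio in the family, the pathway lists and the marker lists (larger points have more counts); colours mark genes at least 1.5-fold apart beyond counting error, black bars list medians, and the dashed line the median of all genes. The cardiomyocyte markers lie right of the dashed line at a median of 0.42, the family spreads on both sides of it, and the fibroblast and endothelial markers lie to its left.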

How the data were processed

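The authors deposited raw read counts for each RefSeq transcript accession in 2 libraries. Per the submitters' processing notes, STAR, HTSeq and build mm10 were used; the sources used here do not state versions, annotation, counting mode or strand setting. Per the labels' protocols, libraries were made with a kit that keeps strand origin after poly-T selection.

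Of 41449 accessions, gene names came from RefSeq for 41252 and from GENCODE for 99, release M21 on GRCm38 (mm10); 98 stayed unnamed, with 1.81% and 1.66% of counts. Counts were summed per gene. Strand classes compare annotated exons of opposite-strand genes (overlapping, near within 5 kb, isolated). Libraries were scaled with TMM factors from edgeR 4.0.16 in R 4.3.3. The ratio of normalised counts has an exact 95% Clopper-Pearson interval. No p-value was computed, since a group of 1 library leaves no spread to test against. A gene has a ratio if it has more than 3 counts in a library; a 0 is replaced by 3. Pairs of members were compared by the exact conditional interval of the odds ratio. The functions were tested on simulated data.

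Members, lists and comparisons were chosen with earlier results of these data known. Named genes were the members, opposite-strand genes, and of each list the up to 4 genes called apart or otherwise its 2 most counted; 1 gene under this rule is not reported here, and further genes, such as Hspa8, Hspe1, Hspa1b and Flnc, were named after their values were seen. With 2 libraries no likeness of pattern between genes can be measured. Python 3.11.15, numpy 2.4.6, scipy 1.17.1, pandas 2.3.3, matplotlib 3.10.9 and DESeq2 1.42.0 (size factors only) were used.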

Additional observations from a re-analysis of the deposited data

How the results depend on the processing

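Each member's log2 ratio was recomputed with total counts alone, DESeq2 size factors, upper quartiles, centring on isolated genes, the most counted accession only and a 99% interval, and 38 of these values kept their call and lay within the main counting interval. Cryab, at -0.12, went to 0.049 with total counts alone and to -0.30 when centred on isolated genes. Hspb8, at 0.83, lost its call when centred on isolated genes (0.65) and with a 99% interval (0.83). The number of members called, 1, became 0 when centred on isolated genes, at a 2-fold threshold and with a 99% interval. The family median of 0.084 became -0.093 when centred on isolated genes; leaving out Cryab, added after the data were seen, gave 0.21, and members with at least 30 counts gave 0.37. Centring on isolated genes lowers every log2 ratio by 0.18, and total counts alone raise it by 0.17. The higher calls were 36.7% of all calls in the main scaling, 54.4% with DESeq2 size factors, 62.2% with total counts alone and 18.2% when centred on isolated genes. With an opposite-strand distance of 1 kb in place of 5 kb, 5 members in place of 4 are isolated. No paired analysis was possible because each group has 1 library, and no replicate could be left out. Depth limits Hspb1, Hspb2, Hspb3 and Hspb6, with 10 counts or fewer over both libraries.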
